A study of Homo sapiens with 4 samples.

Results

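Genes of the Wnt/beta-catenin pathway and of its intestinal stem cell programme were followed in a drug-resistant colorectal cancer line with and without raised METTL14. They are a named set of 38 genes, taken by symbol from the 20323 gene rows of the count files, and comprise 22 pathway components and 16 genes known as Wnt targets. Where a symbol had several rows (APC and RNF43 had 2 each), the row with the highest mean count was used. All 38 were found, and 36 had enough counts to be tested.

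Wnt proteins are secreted lipid-modified ligands that bind Frizzled receptors together with the co-receptors LRP5 and LRP6. Without a ligand, a complex of AXIN, APC and the kinase GSK3 marks beta-catenin for breakdown, and with one, Dishevelled proteins halt that complex, so that beta-catenin reaches the nucleus and works with TCF and LEF factors. In the intestinal crypt this signal keeps stem cells dividing. Many of its targets act back on the pathway: RNF43 and ZNRF3 remove Frizzled receptors, AXIN2 joins the destruction complex and NOTUM inactivates Wnt ligands.

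The samples were 4 libraries of poly(A) RNA from HCT-8, a human colorectal cancer line, in a 5-fluorouracil-resistant derivative. A plasmid expressing METTL14, a subunit of the enzyme that writes N6-methyladenosine on mRNA, had been introduced into 2 of them, called METTL14 overexpression, and a plasmid labelled as negative control into the other 2, called control. Both groups had received cycloheximide, which stops translation elongation, at 100 ug/mL. The series states 2 independent experiments without saying which libraries belong together; if the libraries of a group came from 1 culture, the p-values cover technical spread only. A plasmid need not enter every cell, and the values average over all cells of a culture, so that more cells with a transcript and more transcript per cell cannot be told apart.

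Library totals lay between 19206661 and 20161082 counts. METTL14 transcript was at 24.6 and 30.7 CPM (counts divided by the TMM-normalized library size in units of 1e6) in the controls and at 390 and 421 CPM with the plasmid, matching the labels. Of 11 colorectal epithelial markers, 9 reached a mean of 1 CPM in the controls and 10 with METTL14. EPCAM lay between 480 and 500 CPM in each library, whereas CEACAM5 was at or near 0. The list summed to 18300 CPM in control replicate 1, which stood apart, and to 11900 CPM in control replicate 2. With METTL14 it summed to 9380 and 9160 CPM. The keratins KRT8 and KRT18 carried these differences. KRT8 (log2 fold change -0.90, SE 0.195), KRT18 (-0.92, SE 0.224) and KRT19 (-0.39, SE 0.124) were called lower with METTL14. CDH1 (0.74, SE 0.0987), CDH17 (1.87, SE 0.118), CDX2 (0.44, SE 0.156) and LGALS4 (0.44, SE 0.0981) were called higher. Of markers of other cell types, summed fibroblast markers (9 genes) stood at 15.3 and 18.8 against 33.1 and 31.9 CPM. Most of that difference was ACTA2, smooth muscle actin (2.13 and 2.62 against 13.0 and 13.6 CPM). PDGFRB (log2 fold change 1.38, SE 0.252) and COL1A1 (0.50, SE 0.179) were called higher too. COL1A2 (-0.79, SE 0.396), COL3A1 (-0.90, SE 0.412) and DCN (0.55, SE 0.47) were not called, and LUM, THY1 and FAP had too few counts to be tested. The pan-leukocyte marker PTPRC was at no more than 0.052 CPM. The leukocyte list (8 genes) stood at 20.5 and 19.9 against 70.6 and 70.3 CPM, nearly all of it CD68, a lysosomal protein. Endothelial markers (6 genes) stayed between 0.513 and 1.9 CPM, with KDR at 0 in all libraries. Neural markers (6 genes) lay at 544 and 472 CPM in the controls and 265 and 244 CPM with METTL14, nearly all TUBB3. The part of these shifts in the results below was not tested.

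With METTL14, 19 of the 36 tested genes of the set were higher and 3 were lower (edgeR's quasi-likelihood test at 0.05 after Benjamini-Hochberg adjustment). Over all 12700 tested genes, 27.0% were higher and 28.1% lower, 55.1% in all. The median log2 fold change of the set was 0.42, against -0.01 over all tested genes. Components and targets gave like shares: 11 of 21 components were higher and 2 lower (median 0.39), and 8 of 15 targets were higher and 1 lower (median 0.49). Targets ranged more widely, from -2.24 for LGR5 to 2.23 for NOTUM, while components ranged from -0.78 to 1.19. No tested gene of the set was below 2.47 CPM in any library. The METTL14 libraries lay above both controls for 26 of the 36 genes and below both for 5; over all tested genes the shares were 39.8% above and 40.0% below, 79.8% in all.

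**Figure D1:**
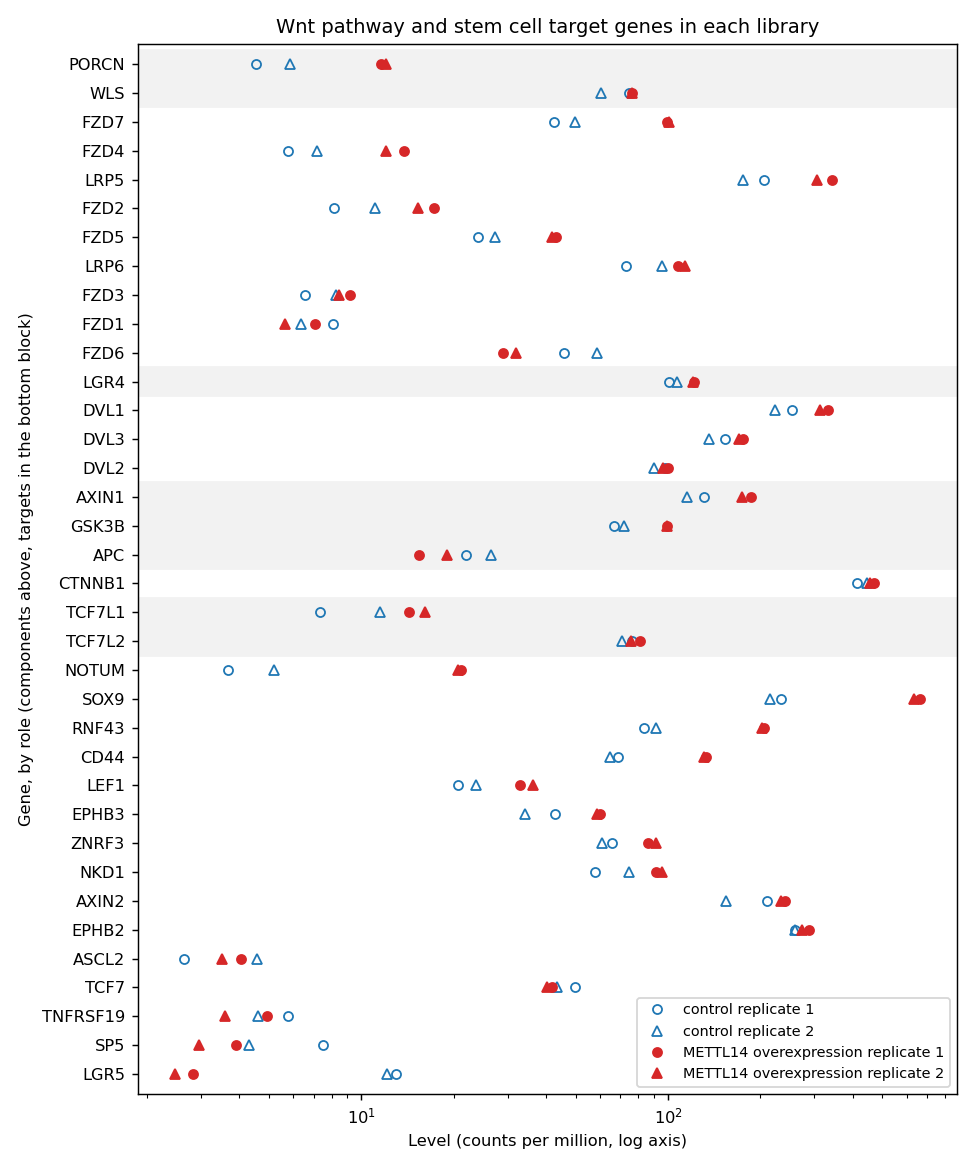
Level of each of the 36 tested genes in each of the 4 libraries, in CPM on a log axis, with open blue symbols for control and filled red symbols for METTL14 overexpression (circle, replicate 1; triangle, replicate 2). NOTUM, SOX9 and RNF43 stand well to the right with METTL14 and LGR5 well to the left, while CTNNB1 and EPHB2 shift little.

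The shift varied with the length and base composition of the transcript. Longer and more GC-rich transcripts were on the whole higher with METTL14: the median length was 3884 nt among all genes called higher and 2792 nt among those called lower, and the median GC content was 53.0% and 46.4%. The tested genes of the set had a median length of 4268 nt and a median GC content of 51.9%, against 3359 nt and 49.7% over all tested genes. When the dependence of the fold change on both features was removed by a loess fit, the median of the targets fell to 0.09 and that of the components to 0.27, with 5 targets higher and 4 lower, and 9 components higher and 1 lower. The 27.0% and 28.1% over all tested genes belong to the fit without this step, and no such share is given for these counts. With the trend removed, AXIN1, APC, TCF7L1, LRP5, DVL1, ZNRF3, NKD1 and EPHB3 no longer passed the test. FZD3 and LGR4 then passed it as higher, and EPHB2, SP5 and TCF7 as lower. The calls of 8 genes held in each of the 15 alternative analyses that gave them a value, including this one: FZD4, FZD7, PORCN, RNF43, NOTUM, SOX9 and CD44 as higher and LGR5 as lower.

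**Figure D2:**
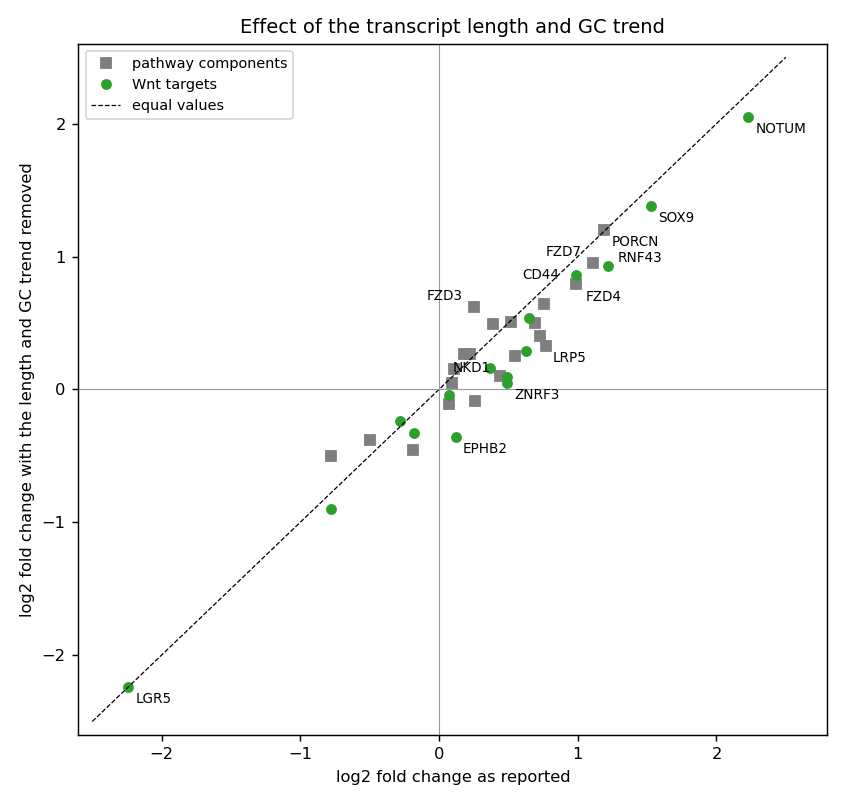
Log2 fold change of each tested gene as reported (horizontal axis) against its value once the dependence on length and GC content was removed (vertical axis), with grey squares for components, green circles for targets and a dashed line of equal values. LGR5 stays at -2.24 and NOTUM moves only from 2.23 to 2.05, whereas ZNRF3 (0.49 to 0.05) and NKD1 (0.49 to 0.09) drop to near 0 and EPHB2 changes sign.

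Among the genes that act on the ligands, PORCN, the acyltransferase that attaches the lipid Wnt proteins need, was at 4.53 and 5.85 CPM in the controls and at 11.6 and 12.0 CPM with METTL14. Both METTL14 libraries were clearly above the controls (2.27-fold, log2 fold change 1.19, SE 0.191, edgeR adjusted p = 0.0018). WLS, which carries the finished ligand to the cell surface, was at 74.5 and 60.5 CPM against 76.6 and 76.5 CPM and did not pass the test (0.18, SE 0.122). The ligand genes themselves were sparse, and of 23 Wnt and R-spondin genes 10 were tested. Of these, 6 were higher and none was lower, against 27.0% and 28.1% over all tested genes. At an unadjusted p below 0.05, 7 were higher and 1 lower, and by DESeq2 5 and 0. WNT4 went from 11 and 27 counts to 248 and 266 counts (log2 fold change 3.71, SE 0.327). WNT7B (1.96, SE 0.204), WNT6 (1.75, SE 0.355) and WNT11 (1.00, SE 0.173) rose as well. Some ligands, WNT2B with 5 and 9 control counts among them, passed the filter on low counts mainly through the METTL14 libraries, so the count of 6 is a description only. None of the 4 R-spondin genes was tested; RSPO3 had no count in any library.

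Among the Frizzled receptors, 4 of 7 tested were higher and 1 was lower (57.1% and 14.3%, against 27.0% and 28.1% over all tested genes). FZD7, a receptor used by intestinal stem cells, was at 42.6 and 49.9 CPM in the controls and at 99.5 and 101 CPM with METTL14 (2.16-fold, a log2 fold change of 1.11, SE 0.111, edgeR adjusted p = 0.000275). FZD6 fell, from 45.8 and 58.7 CPM to 28.9 and 31.9 CPM (log2 fold change -0.78, SE 0.146, edgeR adjusted p = 0.00351). For both genes the groups did not overlap. Scaled to transcript length (CPM per kilobase of the longest annotated coding transcript), FZD7 and FZD6 were the most abundant Frizzled transcripts in the controls. Their control levels overlapped between libraries, though FZD6 was slightly ahead within each. FZD7 stood at 0.914 and 0.834 times the level of FZD6 in the controls and at 3.38 and 3.09 times with METTL14. This is 1 of 4 paralog ratios computed, chosen after their values were seen; for each the exact two-sided permutation test gave p = 0.333, the smallest that 2 against 2 libraries allow.

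The smaller Frizzled transcripts FZD2, FZD4 and FZD5 rose too. FZD4 was at 5.77 and 7.18 CPM in the controls and at 13.8 and 12.0 CPM with METTL14 (log2 fold change 0.99, SE 0.185), though 18.95% of its exon sequence is shared with PRSS23. FZD5, a Frizzled receptor with a known role in Paneth cells, was at 24.0 and 27.2 CPM against 43.2 and 41.8 CPM (0.73, SE 0.118). FZD2 (8.17 and 11.1 against 17.3 and 15.3 CPM; 0.76, SE 0.185) lost its call without METTL14 overexpression replicate 1 (edgeR adjusted p = 0.0576). FZD1 (-0.19, SE 0.219) and FZD3 (0.25, SE 0.191) did not pass the test, and FZD8 had no count in any library. Summed over the 8 genes, Frizzled transcripts came to 141 and 169 CPM in the controls and 219 and 216 CPM with METTL14. Per kilobase, the order with METTL14 was FZD7 (25.9), FZD6 (8.03), FZD2 (7.72), FZD5 (6.34), FZD4 (1.75), FZD1 (0.914) and FZD3 (0.642), where FZD6 and FZD2 overlapped between libraries.

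The co-receptor LRP5 was at 206 and 176 CPM in the controls and at 343 and 305 CPM with METTL14, with no overlap (1.70-fold, a log2 fold change of 0.77, SE 0.119, edgeR adjusted p = 0.00152). Its paralog LRP6 was at 73.2 and 95.6 CPM against 108 and 114 CPM. This rise (0.39, SE 0.138, edgeR adjusted p = 0.0439) lost its call without METTL14 overexpression replicate 1 (adjusted p = 0.0975) or replicate 2 (adjusted p = 0.188). The LRP5 call was lost once length and GC content were accounted for (0.33, adjusted p = 0.0521).

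When bound by R-spondin, its receptors hold the membrane ligases RNF43 and ZNRF3 away from Frizzled. LGR4, the widely expressed one, was at 101 and 107 CPM in the controls and at 122 and 121 CPM with METTL14, a step of 0.22 (SE 0.0946) that did not pass the test (edgeR adjusted p = 0.0796). It passed in 5 of the 15 alternatives, with values of 0.19 to 0.27: library totals, a filter of 5 CPM, length and GC content accounted for, and without control replicate 1 or control replicate 2. LGR5, a Wnt target itself and the classical marker of crypt stem cells (ENSG00000139292, chr12:71439770-71586310, GRCh38, plus strand), was at 13.0 and 12.1 CPM in the controls and at 2.83 and 2.47 CPM with METTL14. The means were 12.5 ± 0.668 and 2.65 ± 0.251 CPM (SD, n = 2). In counts this is 250 and 235 against 55 and 50, a 4.73-fold fall (log2 fold change -2.24, SE 0.194, edgeR adjusted p = 0.000179) and the largest among the set. Per kilobase, LGR5 was at 0.145 and 0.128 times the level of LGR4 in the controls and at 0.0262 and 0.023 times with METTL14 (exact permutation p = 0.333, the smallest possible). LGR6, the remaining member of the family, was at 13.0 and 14.5 against 18.5 and 16.4 CPM and did not pass the test; it was named after its values were seen.

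Of the Dishevelled transcripts, whose proteins pass the signal on from Frizzled, 1 of 3 was called. DVL1, the most abundant of them per kilobase, was at 253 and 223 CPM in the controls and at 333 and 313 CPM with METTL14 (log2 fold change 0.44, SE 0.107, edgeR adjusted p = 0.0105). Its call was lost without METTL14 overexpression replicate 1 (adjusted p = 0.161) or replicate 2 (adjusted p = 0.0754), and accounting for length and GC content lowered it to 0.10. DVL3 (0.26, SE 0.103) and DVL2 (0.07, SE 0.0986) did not pass the test, though DVL3 passed with library totals, with a filter of 5 CPM and without control replicate 1 or control replicate 2, and stood at -0.09 once length and GC content were accounted for.

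In the destruction complex, AXIN1 and GSK3B were higher and APC was lower. AXIN1, the limiting scaffold, was at 131 and 115 CPM in the controls and at 187 and 174 CPM with METTL14 (log2 fold change 0.55, SE 0.107, edgeR adjusted p = 0.004), and GSK3B, the kinase, at 66.5 and 72.1 against 99.0 and 99.6 CPM (0.52, SE 0.0977). Each pair of METTL14 libraries lay above both controls. APC, the tumour suppressor most often lost in colorectal cancer, was at 22.0 and 26.5 CPM against 15.4 and 19.0 CPM (-0.50, SE 0.16, edgeR adjusted p = 0.0331). Its call was lost without METTL14 overexpression replicate 1 (-0.35, adjusted p = 0.28) and under library totals with no normalization, and that of AXIN1 without the same library (adjusted p = 0.0609). A second APC row, at 52 and 65 control counts against 24 and 29, was not used. Of 20 further genes of beta-catenin destruction, kinases and turnover, 6 were higher and 4 lower, against 27.0% and 28.1% over all tested genes. FBXW11, a substrate receptor of the ubiquitin ligase that takes up beta-catenin, was higher (0.55, SE 0.0974), and SKP1, the adaptor of that ligase, was lower (-0.62, SE 0.0926), as was the APC paralog APC2 (-2.25, SE 0.361; 66 and 55 counts against 11 and 15).

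CTNNB1, the transcript of beta-catenin and per kilobase the most abundant component in the controls (90.9), stood at 414 and 447 CPM there against 470 and 457 CPM with METTL14. The 2 groups were close, and the difference did not pass the test (log2 fold change 0.11, SE 0.0966, edgeR adjusted p = 0.378). TCF7L2, the most abundant TCF transcript, was at 76.6 and 71.0 against 81.0 and 76.0 CPM with overlapping groups (0.09, SE 0.1). LEF1, a transcription factor that is also a Wnt target, was at 20.6 and 23.6 CPM in the controls and at 33.0 and 36.4 CPM with METTL14 (0.65, SE 0.128, edgeR adjusted p = 0.00422). TCF7L1, mostly a repressor, was at 7.33 and 11.5 against 14.3 and 16.1 CPM (0.69, SE 0.223, edgeR adjusted p = 0.0337), a call lost without METTL14 overexpression replicate 2 (adjusted p = 0.0962). TCF7 was at 49.6 and 43.5 against 41.9 and 40.4 CPM and did not pass the test (-0.18, SE 0.115). It passed as lower once length and GC content were accounted for. Per kilobase the order in the controls was TCF7L2 (17.8), TCF7 (14.0), LEF1 (6.36) and TCF7L1 (3.18), and it was the same with METTL14 (19.0, 12.4, 9.99 and 5.12), with no overlap between neighbours. The ratio of LEF1 to TCF7 was 0.398 and 0.52 in the controls against 0.755 and 0.864, and that of TCF7L1 to TCF7L2 was 0.133 and 0.227 against 0.246 and 0.295. Of 23 tested nuclear cofactors and repressors of beta-catenin, 8 were higher and 6 lower. These shares, 34.8% and 26.1%, were near the 27.0% and 28.1% over all tested genes. The Groucho corepressors TLE2 (2.84, SE 0.328) and TLE1 (0.95, SE 0.124) and the transcription cofactor TBL1X (1.07, SE 0.1) were higher, and the helicase subunit RUVBL1 was lower (-0.73, SE 0.0981).

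**Figure D3:**
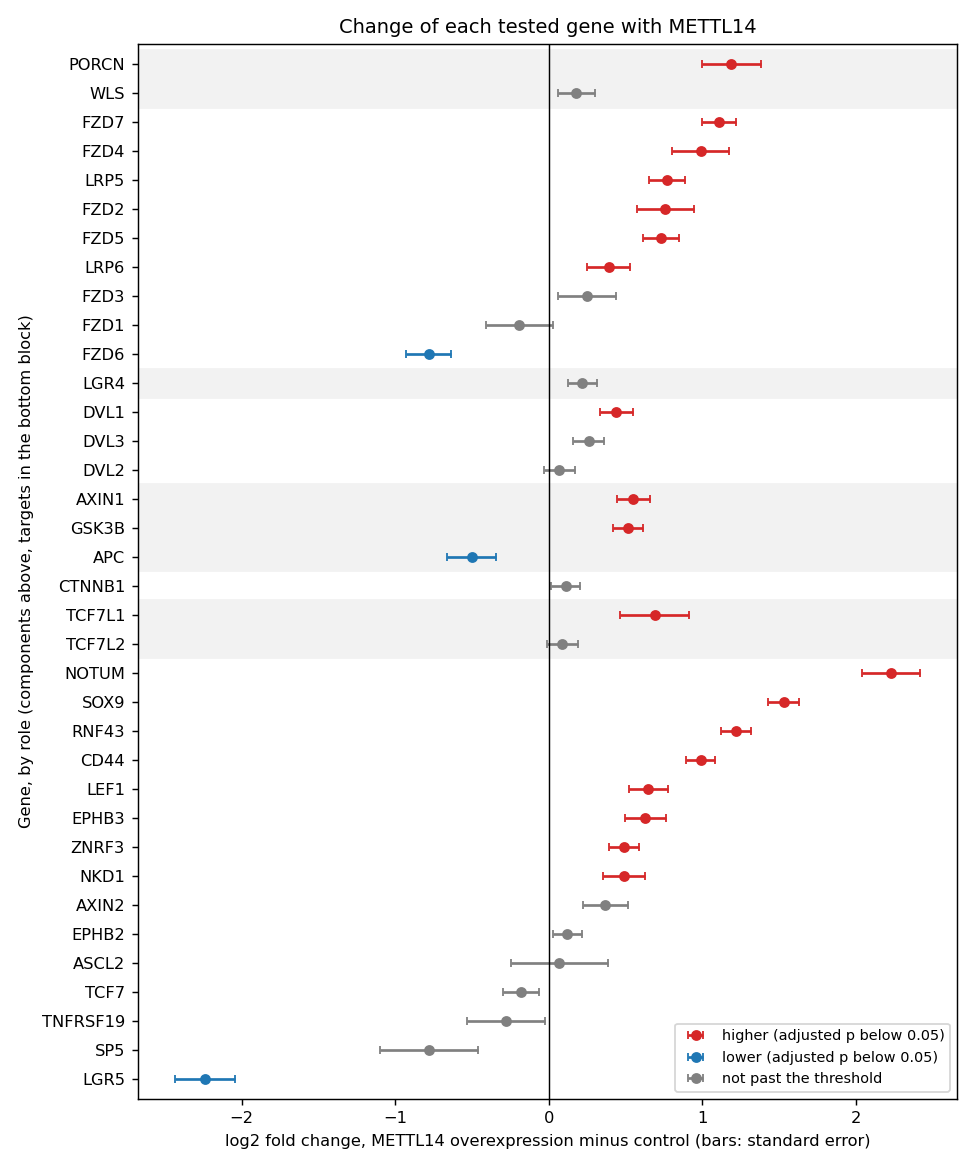
Log2 fold change of each tested gene, METTL14 overexpression minus control, with its standard error as a bar; red marks genes called higher, blue genes called lower and grey genes past no threshold, and shaded bands separate roles. CTNNB1 and TCF7L2 lie near 0, most receptors lie to the right, and targets spread from LGR5 at -2.24 to NOTUM at 2.23.

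Of 6 targets that restrain the pathway (a grouping made after the values were seen) 5 were tested. Of these, 4 were higher and none lower, against 27.0% and 28.1% over all tested genes. At an unadjusted p below 0.05, and also by DESeq2, 5 were higher and none lower. NOTUM, a secreted enzyme that strips the lipid from Wnt proteins (ENSG00000185269, minus strand of chromosome 17), was at 3.69 and 5.18 CPM in the controls and at 21.1 and 20.6 CPM with METTL14. In counts this is 71 and 101 against 410 and 417, a 4.69-fold rise (log2 fold change 2.23, SE 0.19, edgeR adjusted p = 0.000172). RNF43, a membrane ligase against Frizzled, was at 83.7 and 91.1 CPM in the controls and at 205 and 202 CPM with METTL14 (2.33-fold, 1.22, SE 0.0996, edgeR adjusted p = 0.000155). RNF43 shares 57.64% of its exon sequence with a second RNF43 row, and shares exons with SUPT4H1 too. The second row held 45 and 15 control counts against 76 and 118 with METTL14, and adding it left the RNF43 call in place. Its partner ZNRF3 was at 65.7 and 60.9 against 85.9 and 91.4 CPM (0.49, SE 0.1), and NKD1, which binds Dishevelled, at 57.9 and 74.9 against 91.5 and 95.5 CPM (0.49, SE 0.135). The ZNRF3 and NKD1 calls were both lost without METTL14 overexpression replicate 2 (adjusted p = 0.085 and 0.069). Once length and GC content were accounted for, they stood at 0.05 and 0.09 and were not called (adjusted p = 0.673 and 0.606), which left NOTUM (2.05) and RNF43 (0.93) as the feedback genes called higher.

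AXIN2, the most widely used readout of Wnt activity, was at 211 and 155 CPM in the controls and at 241 and 233 CPM with METTL14. Both METTL14 libraries were above the controls, but the controls differed from each other, and the change did not pass the test (log2 fold change 0.37, SE 0.148, edgeR adjusted p = 0.0663). With all 4 libraries it passed by DESeq2 (0.38, adjusted p = 0.0352), with library totals (0.43, adjusted p = 0.023) and with a filter of 5 CPM (0.40, adjusted p = 0.0475), and it stood at 0.16 (adjusted p = 0.382) once length and GC content were accounted for. It also passed without control replicate 1 (0.61) and without control replicate 2 (0.17), fits whose spread rests on the METTL14 libraries alone. AXIN2 shares 25.18% of its exon sequence with CEP112. DKK1, a secreted antagonist of LRP5 and LRP6, was close to silent, with 1 and 0 control counts against 0 and 1. Outside the set, 6 of 14 secreted inhibitors and their receptors were tested. Of these, 4 were higher and none lower, against 27.0% and 28.1% over all tested genes. The counts were 4 and 0 also at an unadjusted p below 0.05 and by DESeq2. KREMEN1, a DKK receptor, was at 215 and 222 against 543 and 520 CPM (1.28, SE 0.0954). The others were the membrane inhibitor APCDD1 (1.13, SE 0.199), KREMEN2 (0.96, SE 0.138) and TRABD2A (0.96, SE 0.15).

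Of 8 stem cell and crypt genes tested, again grouped after the values were seen, 3 were higher and 1, LGR5, was lower. These shares were 37.5% and 12.5%, against 27.0% and 28.1% over all tested genes. SOX9, a transcription factor of crypt progenitors and Paneth cells, was at 234 and 215 CPM in the controls and at 664 and 633 CPM with METTL14 (2.89-fold, log2 fold change 1.53, SE 0.101, edgeR adjusted p = 9.2e-05). CD44, a hyaluronan receptor, was at 68.7 and 64.6 against 133 and 131 CPM (0.99, SE 0.0968). EPHB3, one of the ephrin receptors that position cells along the crypt, was at 42.7 and 34.1 against 60.1 and 58.9 CPM (0.63, SE 0.132), while its more abundant paralog EPHB2 was at 260 and 259 against 289 and 273 CPM and did not pass the test (0.12, SE 0.0943). ASCL2, the transcription factor that defines the stem cell state together with Wnt, was at 2.65 and 4.57 against 4.06 and 3.51 CPM, with overlapping groups (0.07, SE 0.314). TNFRSF19 was at 5.77 and 4.62 against 4.93 and 3.61 CPM, also overlapping (-0.28, SE 0.254).

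SP5, a transcription factor directly induced by beta-catenin, was at 7.49 and 4.31 CPM in the controls and at 3.90 and 2.96 CPM with METTL14. Both METTL14 libraries were lower, but the difference did not pass the test (log2 fold change -0.78, SE 0.318, edgeR adjusted p = 0.072). It passed without control replicate 2 (-1.13) and once length and GC content were accounted for (-0.90, adjusted p = 0.0481), and stood at -0.33 without control replicate 1. The most abundant targets per kilobase in the controls were SOX9 (57.1), AXIN2 (43.0) and EPHB2 (24.0), and the stem cell genes ASCL2 (1.95), LGR5 (2.72), SP5 (2.90) and TNFRSF19 (1.21) were at the low end, beside NOTUM (1.91).

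To compare promoters of targets, the TCF/LEF heptamer ATCAAAG and the forms in which its leading AT is replaced by TT, AA or TA were searched on both strands from 250 bases before to 50 after each RefSeq start site (GRCh38.p14). The table matched 26 of the 38 genes, with 35 promoters, and held no entry for FZD2, FZD3, FZD6, FZD7, LRP6, AXIN2, LGR5, ZNRF3, NKD1, NOTUM, SOX9 and ASCL2. A heptamer was present in 4 of the 35 promoters (11.4%), against 13.8% of all 35116 promoters and 9.23% of those of tested genes. It was found in 3 of 13 target promoters (DKK1, SP5 and the second of TCF7) and 1 of 22 component promoters (the second of TCF7L2). None of the 14 promoters of genes called higher, LEF1, CD44, EPHB3 and RNF43 among them, held one in this window. Shown are the 250 bases before the start of SP5 and DKK1, the target promoters with more than 1 match, and of EPHB3, a target called higher, without one. They are 5' to 3', with matches on either strand in capitals.
SP5 (chr2:170715087-170715336, plus strand): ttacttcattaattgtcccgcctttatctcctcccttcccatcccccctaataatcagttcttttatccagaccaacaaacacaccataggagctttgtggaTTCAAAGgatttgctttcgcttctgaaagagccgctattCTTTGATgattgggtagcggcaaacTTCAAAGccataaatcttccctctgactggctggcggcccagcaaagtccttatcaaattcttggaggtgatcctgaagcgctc
DKK1 (chr10:52314031-52314280, plus strand): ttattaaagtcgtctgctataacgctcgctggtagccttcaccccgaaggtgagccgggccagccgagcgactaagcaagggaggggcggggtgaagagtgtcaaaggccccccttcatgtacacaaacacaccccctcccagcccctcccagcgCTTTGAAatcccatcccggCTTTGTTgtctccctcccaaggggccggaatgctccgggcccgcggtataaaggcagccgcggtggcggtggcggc
EPHB3 (chr3:184561535-184561784, plus strand): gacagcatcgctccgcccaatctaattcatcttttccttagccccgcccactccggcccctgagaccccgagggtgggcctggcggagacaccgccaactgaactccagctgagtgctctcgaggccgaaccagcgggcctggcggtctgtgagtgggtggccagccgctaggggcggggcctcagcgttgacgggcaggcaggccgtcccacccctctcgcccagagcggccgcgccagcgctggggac
The 3 matches of SP5 begin 148, 109 and 84 bases before the start and the 2 of DKK1 95 and 76 bases before it. SP5 was low and not called, DKK1 was close to silent, and EPHB3 rose. Whether a match goes with a change was not tested. A match is a sequence description and shows no binding.

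Of 23 tested further Wnt targets, 10 were higher and 6 lower (43.5% and 26.1%, against 27.0% and 28.1% over all tested genes). ETS2 (1.49, SE 0.1), MYC (1.38, SE 0.118), PLAUR, the urokinase receptor (0.98, SE 0.111), and PPARD (0.90, SE 0.105) were higher. CCND1, cyclin D1, named after its values were seen, was at 1020 and 673 against 342 and 351 CPM (-1.29, SE 0.185), with control replicate 1 well above control replicate 2. In the receptor-side and planar polarity list 7 of 15 tested genes were higher and 1 lower. These shares were 46.7% and 6.67%, against 27.0% and 28.1% over all tested genes. Those higher were led by the cadherins CELSR2 (1.36, SE 0.103), CELSR3 (1.30, SE 0.129) and CELSR1 (0.70, SE 0.106) and the Dishevelled-binding gene DACT3 (1.43, SE 0.189).

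Of 20 tested further stem and progenitor genes, 10 were higher and 4 lower, against 27.0% and 28.1% over all tested genes. LRIG1, a negative regulator of ErbB receptors that marks a slow-cycling stem cell pool, was at 4.53 and 5.23 CPM in the controls and at 25.4 and 21.9 CPM with METTL14 (log2 fold change 2.28, SE 0.166). CDCA7, a nuclear MYC target, fell from 61.4 ± 9.06 to 10.1 ± 0.0774 CPM (mean ± SD, n = 2; -2.61, SE 0.145). The potassium channel KCNQ1 (1.41, SE 0.126) and the RNA-binding protein MSI1 (1.37, SE 0.143) were higher. OLFM4 and SMOC2, which mark LGR5-positive cells in tissue, were at or near 0 in every library. Of 32 differentiation genes, 13 were tested. Of these, 6 were higher and none lower, against 27.0% and 28.1% over all tested genes. At an unadjusted p below 0.05 the counts were 8 and 1, and by DESeq2 6 and 0. The intestinal cadherin CDH17 was at 35.3 and 42.1 against 140 and 142 CPM (1.87, SE 0.118), and the differentiation factor KLF4 at 55.3 and 73.1 against 164 and 156 CPM (1.32, SE 0.142). CDHR5 (1.15, SE 0.117) and ALPI (0.77, SE 0.136), both of the brush border, also rose.

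**Figure D4:**
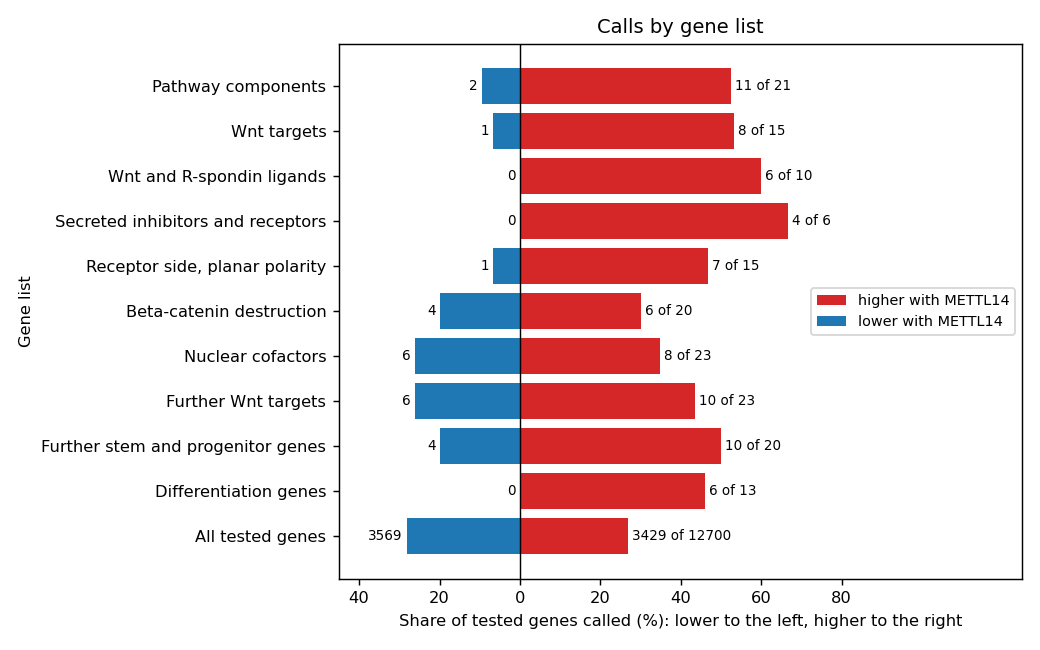
Share of tested genes called higher (red, to the right) and lower (blue, to the left) with METTL14 in each list, in percent, with the numbers beside the bars; the last bar holds all tested genes. Components (11 of 21 higher, 2 lower) and targets (8 of 15 higher, 1 lower) lean to the right, whereas the bar for all genes is close to even.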

How the data were processed

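Expected counts per gene, 1 file per library, were deposited by the authors without normalization (10.8 to 11.6% of values are fractional). Per the submitters' processing notes, fastp, Bowtie2, HISAT2, StringTie and RSEM were used and the build was hg18; versions and the strand setting are not given in the sources used here. RSEM divides reads among overlapping genes, so genes that share exons are less certain. Of the gene identifiers, 20171 of 20323 are in GENCODE release 29 (GRCh38), from which length (longest coding transcript), GC content and exon overlap were taken. Levels per kilobase and the removal of the length and GC trend depend on that choice of transcript, which was 17105 nt for NKD1 and 10816 nt for EPHB2.

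Counts were rounded and analysed in edgeR 4.0.16 (R 4.3.3): filterByExpr (minimum count 10), TMM, and the robust quasi-likelihood test without covariates, with Benjamini-Hochberg adjustment over 12700 genes at 0.05. Standard errors were taken as log2 fold change over √F. The procedure was tested on simulated data. Alternatives were library totals, DESeq2 1.42.0, its size factors within edgeR, limma-voom (3.58.1), other filters, no robust step, replicate number as a block, glmTreat against 1.5-fold, a loess trend on length and GC removed, summed rows, other role assignments and leaving out each library. Genes named are the 38 members, METTL14, the markers, and up to 4 called genes with the smallest p in each further list. WNT2B, RSPO3, LGR6, CCND1, ALDH1A1, OLFM4 and SMOC2 were added after their values were seen. The members, roles and lists were chosen with earlier results of these data known, so lists are described by counts and medians and carry no list test. All 4 libraries were used; other calculations used Python 3.11.15, numpy 2.4.6 and pandas 2.3.3.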

Additional observations from a re-analysis of the deposited data

How the results depend on the processing

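Of 537 values of single genes under 15 alternatives, 478 stayed on their side of the threshold, 33 lost a call and 25 gained one. A further 1 changed sign with a call: EPHB2 at -0.36 (edgeR adjusted p = 0.0158) with length and GC content accounted for. Values that stayed uncalled are among the 478 even where their sign changed. Examples are DVL2 (0.07 as reported, lowest -0.11) and ASCL2 (0.07 as reported, lowest -0.27). Testing against a 1.5-fold change left 1416 genes higher and 1357 lower among all genes, 4 targets and 3 components higher, and 0 components lower (glmTreat; 1 at an unadjusted p below 0.05). With transcript length and GC content accounted for, 5 targets were higher and 4 targets and 1 component lower. The medians were 0.09 for targets and 0.27 for components. The shares over all tested genes in the results belong to the fit without this step. Library totals left 1 component lower. A filter of 5 CPM raised the median of the targets to 0.59. With LEF1, TCF7 and LGR5 counted as components, 0 targets were lower (edgeR; 1 at an unadjusted p below 0.05 and none by DESeq2) and the median of the components was 0.33. Leaving out 1 library at a time gave 7 to 15 components higher, 1 to 2 lower, 6 to 9 targets higher and 1 to 3 lower, and over all genes 2307 to 4452 higher and 2307 to 4575 lower; the low ends for components (7 higher, 1 lower) and for all genes came without METTL14 overexpression replicate 1, and 3 lower targets without control replicate 2. The medians kept their sign. Libraries with the same number shared little deviation (correlation 0.0443). With 2 libraries a group this cannot show whether the samples were paired. With the replicate block 2 targets were lower, SP5 (edgeR adjusted p = 0.0174) in addition to LGR5. AXIN2 and DVL3 gained a call there, and no call was lost. With 2 libraries a group, an exact test cannot go below p = 0.333, and each call rests on the spread shared over genes (biological coefficient of variation 10.8%). ASCL2, SP5 and TNFRSF19, each under 10 CPM, had standard errors above 0.25.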

Other observations

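Of the 16 targets, 4 lie on chromosome 17: AXIN2 (17, 65528563 to 65561647, GRCh38), RNF43 (58352500 to 58417595), SOX9 (72121020 to 72126420) and NOTUM (81952507 to 81961840). SOX9 and NOTUM are on opposite strands, and 3 of the 4 were called higher. Over all 824 tested genes of chromosome 17, 27.4% were called higher and the median log2 fold change was 0.03.

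The sequence GGACT, a form of the motif at which N6-methyladenosine is placed, was counted in the longest annotated coding transcript of each gene. Its median density was 1.12 per kilobase over the 36 tested genes of the set and 0.947 over all tested genes. Genes of the set called higher had a median of 1.17 per kilobase those not called 1.27, and the 3 called lower 0.561. Over all tested genes the medians were 1.03 for those called higher, 0.948 for those not called and 0.866 for those called lower. NOTUM, SOX9 and LGR5 each held 3, RNF43 held 6, FZD7 held 1 and PORCN held 0. No methylation was measured here, and the counts describe sequence only.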
